A study of Mus musculus with 10 samples.

Results

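Genes of antigen presentation and of leukocytes were followed through the culture and differentiation of mouse ureteric bud (UB) organoids. They were taken by symbol from the deposited RNA-seq table, and all 10 were found among its 39273 genes. The 7 genes of antigen presentation were Cd74, H2-Aa, H2-Ab1, H2-Eb1, H2-DMa, H2-DMb1 and Ciita, and the 3 leukocyte genes were Ptprc, Csf1r and Cd68. The genes had been selected on their CPM and RPKM levels in these same 5 groups, so their values are given below as a description and without p-values. The question put to them was whether class II transcripts in CD organoids came with transcripts of leukocytes.

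Each of 5 groups had 2 libraries, and nothing in the sources says that these came from separate cultures or animals. UB organoids of day 5, day 10 and day 20 were grown in Matrigel from T-shaped UBs of E11.5 kidneys of Wnt11-RFP +/- mice, on a background of C57BL/6 crossed with Swiss Webster. Their medium, mUBCM, held FGF9, GDNF, Rspo1, CHIR99021, TTNPB, LDN-193189, A83-01, SB202190 and JAK Inhibitor I, an inhibitor of the kinases that relay interferon and cytokine signals. By the paper's methods, collecting duct (CD) organoids were UB organoids of day 10 moved to CDDM. They were thus a branch from day 10 and not a stage after day 20. This medium, CDDM, held FGF9, Y27632, DAPT, PD0325901, aldosterone and vasopressin and no JAK inhibitor. Adult mCD cells were sorted as Hoxb7-Venus+ cells from kidneys of mice of 2 months, without culture. The sample labels give the adult libraries the same strain, embryonic age and Wnt11-RFP genotype as the organoids and call them an organoid, and the description in the methods and design text was followed here.

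Class II molecules are pairs of an alpha and a beta chain that carry peptides to the surface of dendritic cells, macrophages and B cells, where CD4+ T cells read them. The invariant chain, encoded by Cd74, binds new class II chains in the endoplasmic reticulum, blocks their groove and guides them to endosomes, where cathepsins degrade it. H2-DM then exchanges its remnant for peptide. Transcription of these genes usually depends on the coactivator CIITA, which is recruited to a promoter module of X and Y boxes by the RFX and NF-Y complexes and is induced by interferon-gamma in many epithelia. Renal tubular epithelium can carry class II molecules in inflamed kidneys, and the kidney also holds resident macrophages and dendritic cells that carry them constitutively.

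The promoters of the class II chain genes share the letters of this module, and 6 of them are shown: H2-Aa, H2-Eb1, H2-DMb1 and H2-Ob, which all had their highest level in adult mCD, and H2-DMb2 and H2-Eb2, which did not. RefSeq promoters on GRCm38.p6, each 300 bases from 250 before to 50 after a gene's start, were found for 10 of the 16 genes looked up. Segments of 60 bases are given 5′ to 3′ on the strand of the gene, with the Y box letters TGATTGG and, where present upstream of them, the X box core letters GNAAC in capitals. H2-Aa lies at chr17:34287859-34287918 on the minus strand, and the others on the plus strand at chr17:34305761-34305820 for H2-Eb1, chr17:34153083-34153142 for H2-DMb1, chr17:34145112-34145171 for H2-DMb2, chr17:34238801-34238860 for H2-Ob and chr17:34325528-34325587 for H2-Eb2.
H2-Aa: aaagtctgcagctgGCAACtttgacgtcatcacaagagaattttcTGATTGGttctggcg
H2-Eb1: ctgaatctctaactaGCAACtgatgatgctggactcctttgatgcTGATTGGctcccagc
H2-DMb1: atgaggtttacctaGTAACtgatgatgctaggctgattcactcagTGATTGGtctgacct
H2-DMb2: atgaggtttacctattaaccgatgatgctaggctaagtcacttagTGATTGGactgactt
H2-Ob: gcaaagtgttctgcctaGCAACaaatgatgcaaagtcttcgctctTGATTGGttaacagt
H2-Eb2: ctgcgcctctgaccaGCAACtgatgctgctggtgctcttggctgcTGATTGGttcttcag

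The X core started 28 to 31 bases before the Y box in the segments that hold both. Of the 8 class II chain genes with a promoter in the table, 7 held the Y box letters and 6 held the pair. Genes with the pair differed in where they were highest: H2-Eb2 had no count in adult mCD or CD organoids and 21 and 39 at day 10, and H2-Oa, the sixth, had 1 and 1 in adult mCD and 7 and 12 at day 5. Among all 32851 promoters, 7.82% held the Y box letters on either strand and 0.715% held the pair on one strand with 20 to 45 bases between the starts, a window that was set after these promoters had been read. H2-DMa held neither in its 2 windows, nor did Ptprc, while Cd68 held the pair. The segments of the neighbouring genes H2-DMb1 and H2-DMb2 were identical at 53 of 60 positions, and that of H2-DMb2 did not hold the pair. A match of letters does not show that a factor was bound, and none shows only that these letters are absent from this window.

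The libraries held 11913613 to 24536676 counts, with 22858971 or more in those of day 5 and day 10 and 16759872 or fewer in the others. Levels are given as CPM, the counts divided by the library size with the TMM factor of edgeR, and 3 counts corresponded to 0.109 to 0.241 CPM, a limit that covers counting error only. Over Uty, Ddx3y, Eif2s3y and Kdm5d, all Y-linked, the sum came to at most 0.875 CPM in the libraries of day 5 and day 10. It was 230 CPM or more in all 6 others, so groups on either side of this divide also differed in the sex of the cells. The CD organoids were thus not grown from the cells sequenced at day 10. A change given below from day 10 to CD organoids compares groups of separate cells. Calls required both a change over 4-fold and a Benjamini-Hochberg adjusted p no higher than 0.01 in edgeR's quasi-likelihood test. In bulk RNA, fewer cells of a type and less RNA per cell cannot be told apart.

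Cd74, the invariant chain, was the most abundant class II gene in CD organoids. Its mean level rose in the order day 5, day 10, day 20 and CD organoids. It was counted 5 and 9 times at day 5, 12 and 16 times at day 10, 70 and 64 times at day 20, 857 and 724 in CD organoids and 288 and 339 in adult mCD. The libraries of no 2 groups overlapped, and both CD organoid libraries lay above both adult libraries. The mean level was 0.290 ± 0.109 CPM at day 5, 0.530 ± 0.0762 at day 10 and 4.24 ± 0.0122 at day 20 (SD, n = 2). It reached 59.5 ± 2.09 CPM in CD organoids, above the 24.2 ± 3.49 CPM of adult mCD (SD, n = 2).

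The log2 fold change of Cd74 from day 10 to CD organoids was 6.67 with a standard error of 0.19, a ratio of 112 with a 95% counting interval of 77.3 to 169. Against day 20, whose libraries were closest to those of CD organoids in depth and alike in the Y-linked genes, it was 3.80 with a standard error of 0.15. The smallest step was that from day 5 to day 10, at 0.76 with a standard error of 0.33, and its counting interval, a ratio of 0.927 to 3.74, includes no change. From CD organoids to adult mCD the log2 fold change was -1.30 with a standard error of 0.13.

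**Figure D1:**
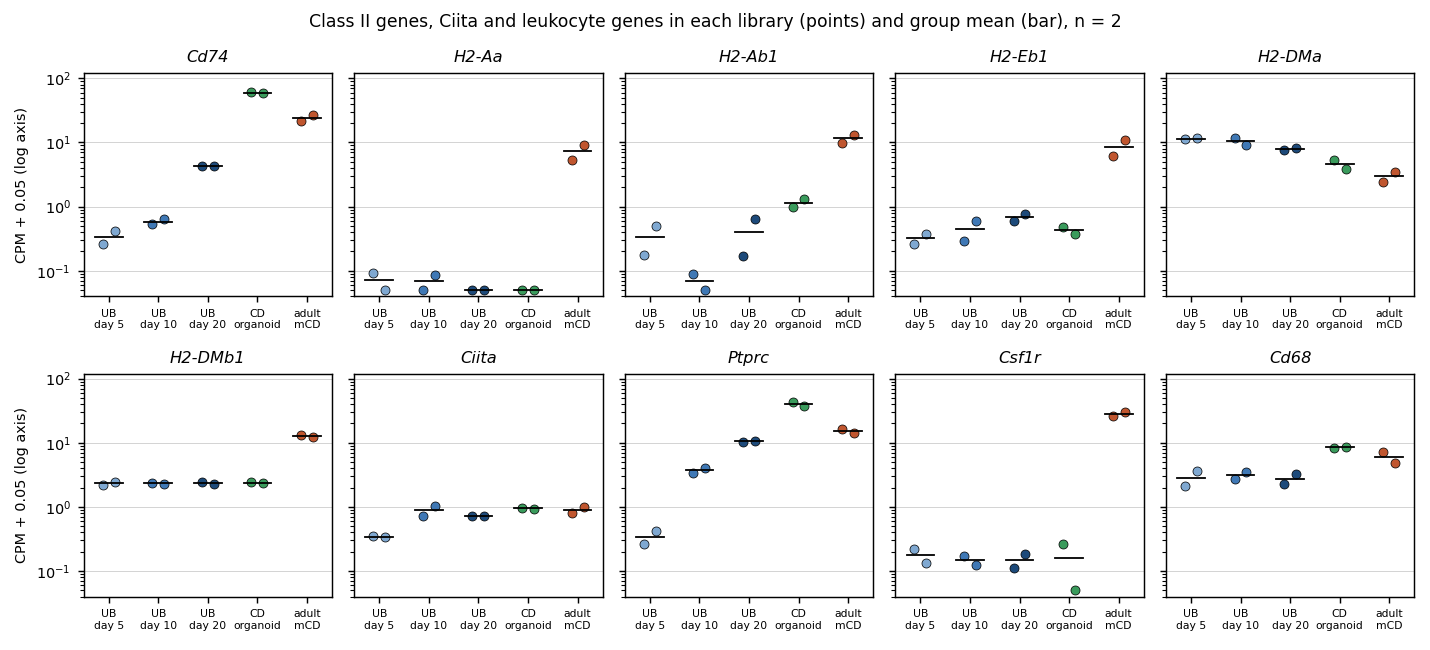
Level of each of the 10 genes as CPM + 0.05 on a log axis in the 5 groups, with a point for each library and a bar for the group mean (n = 2). Cd74 and Ptprc stood highest in CD organoids, whereas H2-Aa, H2-Ab1, H2-Eb1, H2-DMb1 and Csf1r stood highest in adult mCD.

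The 3 genes for chains of the classical class II molecules had their highest level in adult mCD and only traces in CD organoids. H2-Aa encodes the alpha chain of I-A and lies at chr17:34282744-34287823 on the minus strand of GRCm38. It had 69 and 117 counts in adult mCD, none in the libraries of CD organoids or day 20, and at most 1 count in each library of day 5 and day 10. Its adult level, 7.20 ± 2.83 CPM (SD, n = 2), was at least 63.2-fold higher than in CD organoids, taken against 3 counts over that group.

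H2-Ab1, at chr17:34257689-34269419 on the plus strand, encodes the beta chain of I-A. It had 3 and 11 counts at day 5, 1 and 0 at day 10, 2 and 9 at day 20, 13 and 16 in CD organoids and 131 and 168 in adult mCD. CD organoids thus lay above every UB organoid library and below both adult libraries, and among the UB organoids day 10 lay below day 5 and day 20, which overlapped. The ratio of CD organoids to day 10 was 57.6, which rests on 1 count at day 10 and has a 95% counting interval of 9.55 to 2352. Against day 20 the log2 fold change was 1.51 with a standard error of 0.60, and it was 0.82 without replicate 1 and 2.72 without replicate 2 of day 20. From CD organoids to adult mCD it was 3.33 with a standard error of 0.43, from 1.10 ± 0.253 CPM to 11.54 ± 2.36 CPM (SD, n = 2).

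H2-Eb1, at chr17:34305867-34316674 on the plus strand, encodes the beta chain of I-E. It had 5 and 8 counts at day 5, 6 and 15 at day 10, 9 and 11 at day 20. The CD organoids had 6 and 4, which in CPM lay within the range of the UB organoids, and adult mCD had 82 and 136. Its log2 fold change was -0.07 with a standard error of 0.55 from day 10 to CD organoids and 4.30 with a standard error of 0.44 from there to adult mCD. The partner of this chain, encoded by H2-Ea, had at most 1 count in any library. Some inbred haplotypes, among them that of C57BL/6, do not make H2-Ea transcripts.

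The levels of Cd74 and of the chains were therefore in very different proportion. Per kilobase of merged exon, Cd74 stood at 35.5 CPM in CD organoids, against 0.430 for H2-Ab1, 0.192 for H2-Eb1 and 0 for H2-Aa. In adult mCD the same scale gave 14.4 for Cd74, 4.49 for H2-Ab1, 4.34 for H2-Eb1 and 1.90 for H2-Aa. Cd74 exceeded the mean of the 3 chains by 188 and 156 times in the CD organoid libraries and by 4.62 and 3.64 times in the adult libraries. It did so by 23.1 and 12.5 times at day 20, by 6.17 and 3.58 times at day 10 and by 2.23 and 1.91 times at day 5. In each organoid library the chain mean rested on 7 to 20 counts in all, against 282 and 421 in the adult libraries, so the organoid ratios are imprecise, but those of CD organoids lay apart from all others.

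The genes of H2-DM, the peptide exchange factor, differed in pattern: H2-DMb1, like the classical chains, was highest in adult mCD, and H2-DMa was lowest there. H2-DMa, the alpha subunit, at chr17:34119541-34139101 on the plus strand, was the most abundant of the class II members per kilobase at day 5 and day 10, at 3.32 and 3.04 CPM, and was passed by Cd74 at day 20. It had 266 and 283 counts at day 5, 297 and 251 at day 10, 123 and 122 at day 20, 73 and 47 in CD organoids and 31 and 44 in adult mCD. Its level was 11.45 ± 0.137 CPM at day 5, 4.48 ± 1.01 in CD organoids and 2.90 ± 0.793 in adult mCD (SD, n = 2), and no library of these 3 groups overlapped. The log2 fold change from day 10 to CD organoids was -1.21 with a standard error of 0.21. Of the exon bases of H2-DMa, 10.4% are shared with Brd2 on the opposite strand, which was at 278 CPM or more in every library, and the strand setting of the counting is not given in the sources used here. Brd2 was highest in adult mCD, at 926 and 1011 CPM, where H2-DMa was lowest.

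H2-DMb1, a beta subunit at chr17:34153072-34160230 on the plus strand, stayed between 2.18 and 2.41 CPM in all 8 organoid libraries. It had 51 and 59 counts at day 5, 59 and 61 at day 10, 39 and 34 at day 20, 33 and 29 in CD organoids and 176 and 156 in adult mCD. The adult level of 12.8 ± 0.710 CPM (SD, n = 2) lay above all organoid libraries, a log2 fold change of 2.42 against CD organoids with a standard error of 0.21. Between neighbours in the order day 5, day 10, day 20 and CD organoids, the 3 log2 fold changes were -0.01, 0.02 and 0.02, with standard errors of 0.20 to 0.23.

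H2-DMb2, the second beta gene, was listed as a pathway gene and not as a member, and it moved the other way. It had 169 and 161 counts at day 5, 185 and 190 at day 10, 176 and 122 at day 20, 24 and 17 in CD organoids and 7 and 18 in adult mCD. Its log2 fold change to CD organoids from day 10 was -2.17 with a standard error of 0.29 (adjusted p = 2.53e-05 from edgeR). H2-DMb1 thus made up 18.1% to 26.8% of the counts of the pair in the UB organoid libraries, 57.9% and 63.0% in the CD organoid libraries and 96.2% and 89.7% in the adult libraries. Of the 50-base words in H2-DMb1 transcripts, 22.7% also occur in H2-DMb2. The sources do not settle how the deposited counts treated reads that match both genes, so the split within the pair is uncertain. No other member shared as much as 0.5% of its words with another gene.

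**Figure D2:**
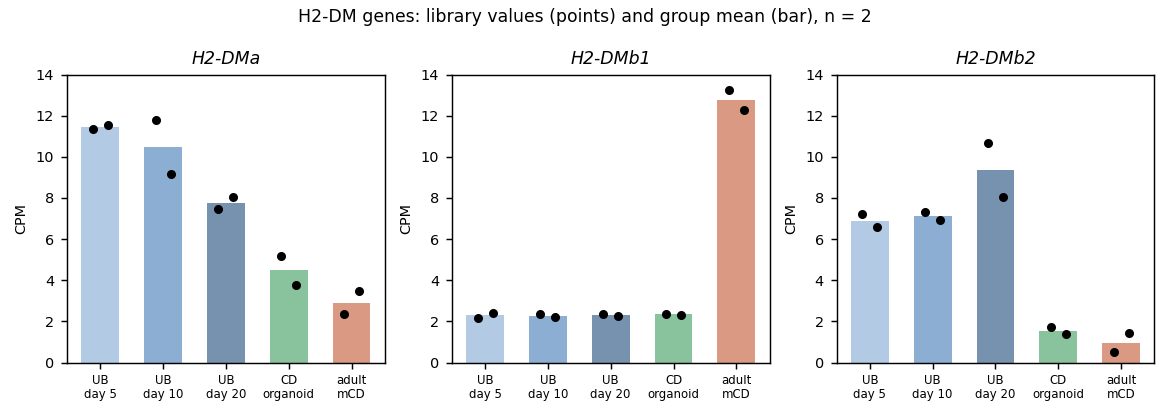
Level in CPM of H2-DMa, H2-DMb1 and H2-DMb2 in the 5 groups, with bars from 0 for the group mean (n = 2) and a point for each library. H2-DMb1 lay between 2.18 and 2.41 CPM in all organoid libraries and at 12.8 CPM on average in adult mCD, while H2-DMa and H2-DMb2 were lowest there.

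Ciita, the class II transactivator, at chr16:10480059-10528418 on the plus strand, was scarce in every group. It had 7 and 7 counts at day 5, 17 and 27 at day 10, 11 and 10 at day 20, 13 and 11 in CD organoids and 10 and 12 in adult mCD. Day 5 lay below all others, and the other 4 groups ranged from 0.661 to 0.985 CPM, with overlap of day 10, CD organoids and adult mCD. The log2 fold change of Ciita was 1.36 from day 5 to day 10 with a standard error of 0.38, 0.11 from day 10 to CD organoids with a standard error of 0.37, and -0.09 from CD organoids to adult mCD with a standard error of 0.40. Hence neither the step in Cd74 nor that in the classical chains came with a detectable step in Ciita at this depth, where the counting intervals of these ratios run from 0.630 to 1.82 and from 0.500 to 1.74. Dexi, on the opposite strand, shares 329 exon bases with Ciita and was at 13.7 to 20.7 CPM.

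The other factors of the class II promoter, a list of 7 genes for the RFX and NF-Y complexes and Creb1, were expressed in all libraries, and none was called in any of the 5 comparisons by edgeR, DESeq2 or limma, although 3 to 6 of the 7 had an unadjusted p under 0.05 from edgeR. Their median log2 fold change was -0.37 from day 10 to CD organoids, against -0.15 over all genes, and -0.45 from CD organoids to adult mCD, against 0.00 over all genes. Nfya, a subunit of NF-Y, had the largest change of these between CD organoids and adult mCD, at -1.17 (adjusted p = 1.1e-07 from edgeR), and Rfxap, of the RFX complex, the largest from day 10 to CD organoids, at -0.92 (adjusted p = 4.2e-05 from edgeR), both under 4-fold.

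Of the leukocyte genes, Ptprc, like Cd74, had a mean level that rose in the order day 5, day 10, day 20 and CD organoids, whereas Csf1r did not. Ptprc encodes CD45, a phosphatase that is used as a general marker of leukocytes, and lies at chr1:138062861-138175708 on the minus strand. It had 5 and 9 counts at day 5, 83 and 111 at day 10, 171 and 160 at day 20, 614 and 466 in CD organoids and 218 and 178 in adult mCD. The groups did not overlap, and CD organoids were highest with 40.6 ± 4.49 CPM beside 15.2 ± 1.73 in adult mCD (SD, n = 2). The log2 fold change of Ptprc was 3.43 from day 5 to day 10, 1.95 from day 20 to CD organoids and -1.41 from there to adult mCD, with standard errors of 0.15 to 0.26, and the ratio of day 20 to day 10 was 2.84. The step of Ptprc thus came earlier than that of Cd74. From day 5 to day 10 the ratio of Ptprc was 12.6 with a counting interval of 7.34 to 23.5, above the interval of Cd74 given above.

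Csf1r, the receptor for CSF1, on which macrophages depend for survival, was near 0 in all organoids. It had 4 and 2 counts at day 5, 3 and 2 at day 10, 1 and 2 at day 20, 3 and 0 in CD organoids and 347 and 382 in adult mCD. Its adult level of 28.1 ± 2.74 CPM (SD, n = 2) was 248 times that of CD organoids, a ratio that rests on 3 counts and has a 95% counting interval of 84.5 to 1205. Of the exon bases of Csf1r, 15.1% lie opposite Hmgxb3, which was at 41.7 to 66.0 CPM in all libraries and did not share this step.

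Cd68, a lysosomal membrane protein that is abundant in macrophages and present in other cells, lies at chr11:69664213-69666153 on the minus strand. It had 48 and 87 counts at day 5, 67 and 95 at day 10, 36 and 48 at day 20, 115 and 108 in CD organoids and 95 and 61 in adult mCD. The 3 UB organoid groups overlapped at 2.05 to 3.55 CPM, and the CD organoids, with 8.43 ± 0.335 CPM, and adult mCD, with 5.98 ± 1.67, lay above them (SD, n = 2). The log2 fold change of Cd68 from day 10 to CD organoids was 1.44 with a standard error of 0.28.

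The 3 leukocyte genes were thus in unlike proportion in CD organoids and adult mCD. Csf1r reached 0.0155 of the level of Ptprc per kilobase in 1 CD organoid library and 0 in the other, and 5.05 and 6.81 times that of Ptprc in the adult libraries. The ratio of Cd74 to Ptprc per kilobase, by contrast, was 15.2 and 16.9 in CD organoids and 14.4 and 20.8 in adult mCD, which overlap, and 4.46 and 4.36 at day 20, 1.58 and 1.57 at day 10 and 10.9 in both libraries of day 5. At day 5 both genes had 5 counts in one library and 9 in the other, so that ratio reflects only the exon lengths.

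In a wider list of 50 leukocyte markers, a few genes had many counts in CD organoids and most were at 0. In the CD organoid libraries 30 and 31 of the 50 were at 0 and 9 had more than 3 counts, while in the adult libraries 9 and 7 were at 0 and 27 and 29 had more than 3 counts. The list summed to 123 and 120 CPM in CD organoids, 44.3 and 51.7 CPM in adult mCD and 25.0 to 39.6 CPM in the 6 UB organoid libraries. Without 6 genes picked out after their values were seen, Ikzf1, Trem2, Zbtb46, Cd79a, Cd79b and Aif1, the rest summed to 4.98 and 5.29 CPM in CD organoids, 30.1 and 37.5 CPM in adult mCD and 2.45 to 10.0 CPM in the UB organoids. The 6 include the high genes of CD organoids, so the lower sum there follows from the choice and nothing is read from it.

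Ikzf1, which encodes the lymphoid transcription factor Ikaros, had 1101 and 905 counts in CD organoids, 276 and 261 at day 10 and 4 and 13 in adult mCD. It rose by 2.88 on the log2 scale from day 10 to CD organoids, with a standard error of 0.16 (adjusted p = 4.75e-09 from edgeR). Trem2, a lipid receptor of macrophages and microglia, had 177 and 188 counts in CD organoids and 1 and 2 at day 10, a ratio of 242 with a 95% counting interval of 82.0 to 1177 (adjusted p = 2.86e-08 from edgeR). Aif1, an actin-bundling protein of macrophages, had 88 and 83 counts in CD organoids and 11 and 6 at day 10, a log2 fold change of 4.11 (adjusted p = 2.87e-07 from edgeR). These genes stood out in CD organoids while C1qa, C1qb, C1qc, Adgre1, Cx3cr1, Tyrobp and Cd53, which define tissue macrophages or leukocytes in general, had no count in either CD organoid library.

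Of the 36 leukocyte markers tested, 6 were called as higher and 3 as lower in CD organoids than at day 10, against 4.96% and 5.71% of all 24410 genes tested. The 6 also included Mpeg1, a pore-forming protein of macrophages, Clec9a, a receptor of dendritic cells, and Cd79b, a signalling chain of the B cell receptor. Those lower were Cd79a, the partner of Cd79b, Pax5, a B cell transcription factor, and Coro1a, a coronin of leukocytes. Cd79a had 209 and 179 counts at day 10 and 1 and 1 in CD organoids (adjusted p = 4.08e-08 from edgeR). Coro1a had 171 and 176 counts at day 5, 75 and 51 at day 10, and 0 and 1 in CD organoids (adjusted p = 8.09e-05 from edgeR against day 10). The median log2 fold change of the list was -0.35, against -0.15 over all genes.

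**Figure D3:**
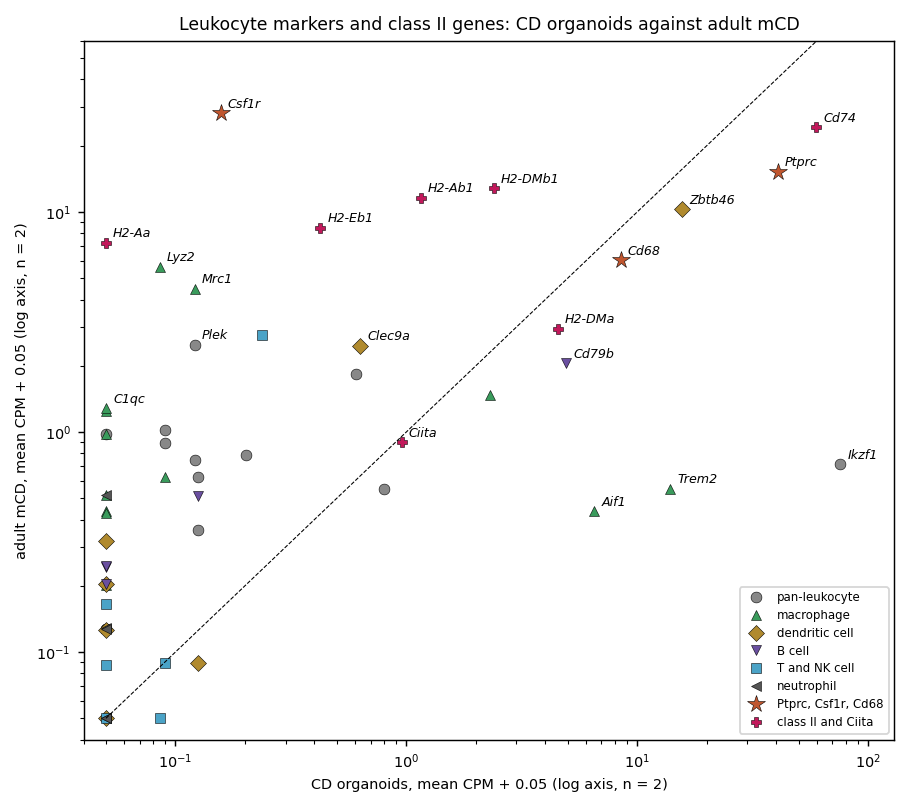
Mean CPM + 0.05 in CD organoids against that in adult mCD, both on log axes (n = 2 each), for the leukocyte markers by cell type and for the 10 genes of the report, with a dashed line of equal level. Ptprc, Cd74, H2-DMa, Ikzf1, Trem2 and Aif1 lie on the side of CD organoids. Csf1r, Lyz2, Mrc1, C1qc, H2-Aa, H2-Ab1, H2-Eb1 and H2-DMb1 lie on that of adult mCD.

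Between CD organoids and adult mCD, 10 of the 36 leukocyte markers tested were called higher in adult mCD and 3 lower, against 9.84% and 4.5% of all genes. Without replicate 1 of CD organoids the calls numbered 8 in place of 13. Those higher were the complement genes C1qa, C1qb and C1qc, the lysozyme gene Lyz2, the mannose receptor gene Mrc1, the T cell receptor constant gene Trac, and Plek, Coro1a, Rac2 and Cd53 of leukocytes in general. Lyz2 had 71 and 74 counts in adult mCD and 1 and 0 in CD organoids, a ratio of 148 with a 95% counting interval of 26.1 to 5882 (adjusted p = 1.03e-06 from edgeR). C1qc had 17 and 15 counts and none in CD organoids (adjusted p = 9.64e-04 from edgeR), at least 10.9-fold higher. Those lower were Ikzf1, Trem2 and Aif1. The median log2 fold change of the list was 2.24, against 0.00 over all genes.

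The adult libraries also held transcripts of other kidney cells beside those of leukocytes. All 7 endothelial markers and all 8 proximal tubule markers were called higher in adult mCD than in CD organoids, against 9.84% of all genes, with median log2 fold changes of 7.89 and 9.90. Pecam1, a junction protein of endothelium, had 2071 and 2025 counts there and 10 and 10 in CD organoids. The sorted adult cells therefore did not hold CD transcripts alone, and the part of leukocytes, endothelium and tubule in the adult levels of the class II genes was not tested. Neither was the part of leukocytes in the Cd74 and Ptprc of CD organoids. In these libraries Csf1r stood at 3 and 0 counts, the C1q genes at 0, and 30 and 31 of the 50 leukocyte markers at 0, beside 17 to 32 in the UB organoid libraries. Cd68 stood at 115 and 108 counts in the CD organoid libraries, Ikzf1 at 1101 and 905, Trem2 at 177 and 188 and Aif1 at 88 and 83.

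Among the genes that process class II molecules, 3 endosomal proteases were called higher in CD organoids than at day 10. Of the 22 genes tested of a class II pathway list of 23, which holds the other class II chains, the promoter factors and the processing genes, 3 were called higher and 3 lower from day 10 to CD organoids, against 4.96% and 5.71% of all genes. The median log2 fold change of the list was -0.01, against -0.15 over all genes. This median joins unlike parts. It was 1.48 for the 11 processing genes, -1.82 for the 4 other class II chains tested and -0.37 for the 7 promoter factors. Those higher were the cathepsin genes Ctsd, Ctsh and Ctss. Ctsd had 3232 and 2933 counts at day 10 and 10714 and 8844 in CD organoids, its log2 fold change being 2.65 with a standard error of 0.11 (adjusted p = 2.69e-10 from edgeR). Ctsh had 1246 and 596 counts at day 10 and 3379 and 2948 in CD organoids, 2.75 higher on the log2 scale (adjusted p = 8e-07 from edgeR). Ctss, which encodes the cathepsin that trims the invariant chain in professional antigen-presenting cells, had 0 and 1 counts at day 10, 6 and 8 in CD organoids and 26 and 28 in adult mCD. Its ratio of CD organoids to day 10 was 27.8, with a 95% counting interval of 4.23 to 1175 (adjusted p = 0.00197 from edgeR).

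Those lower in CD organoids were H2-DMb2, given above, H2-Eb2 and Marchf1. H2-Eb2, a further class II beta gene, had 21 and 39 counts at day 10 and none in CD organoids or adult mCD, at least 10.1-fold lower in CD organoids (adjusted p = 2.19e-04 from edgeR). Marchf1, a ubiquitin ligase that removes class II molecules from the surface, had 13 and 16 counts at day 10, 1 and 1 in CD organoids (adjusted p = 0.00445 from edgeR) and 16 and 16 in adult mCD. Against day 20, 3 genes of the list were called higher, Ctsd, Ctsh and Ctss, and 2 lower, H2-DMb2 and H2-Eb2, against 4.74% and 4.73% of all genes. From CD organoids to adult mCD, 2 were called higher, Marchf1 and H2-Ob, against 9.84% of all genes, and none lower by edgeR, DESeq2 or limma, against 4.5%, while 5 were lower at an unadjusted p under 0.05 from edgeR. H2-Ob, the beta chain of the DM inhibitor H2-DO that is typical of B cells, had 15 and 20 counts in adult mCD and none in any organoid library.

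Genes of class I presentation and of interferon-gamma signalling were measured from a second list of 24, all of which were tested. Comparing CD organoids with day 10, 5 were called higher and 1 lower, against 4.96% and 5.71% of all genes, and the median log2 fold change was 1.29, against -0.15 over all genes. H2-D1, a classical class I heavy chain, had 123 and 66 counts at day 10 and 2376 and 2017 in CD organoids, 5.50 higher on the log2 scale with a standard error of 0.21 (adjusted p = 1.23e-10 from edgeR). Psmb8, a subunit of the immunoproteasome, had 5 and 5 counts at day 10 and 64 and 70 in CD organoids, 4.39 higher on the log2 scale (adjusted p = 3.88e-07 from edgeR). Tap2, a subunit of the peptide transporter, had a log2 fold change of 2.91, and Ifngr1, a subunit of the interferon-gamma receptor, one of 2.03. H2-K1 and B2m, at 1.93 and 1.63, stayed under 4-fold.

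Irf8, a transcription factor of myeloid and B cells, was the gene called lower, with 235 and 332 counts at day 10 and 8 and 15 in CD organoids (adjusted p = 2.76e-07 from edgeR). Nlrc5, the class I counterpart of Ciita, had 2 and 4 counts at day 10 and 3 and 3 in CD organoids, and its log2 fold change was 0.74 (adjusted p = 0.393 from edgeR). Against day 20, 5 genes were called higher, the class I genes H2-D1, H2-K1, Psmb8, Psmb9 and Tap2, and Irf8 lower, against 4.74% and 4.73% of all genes. From CD organoids to adult mCD, Irf1, Socs1, Socs3, Irf8 and Nlrc5 were called higher and Ifngr1 lower, against 9.84% and 4.5% of all genes. Irf1, an early target of interferon-gamma that acts on the Ciita promoter, had 538 and 481 counts in CD organoids and 7625 and 6620 in adult mCD, 3.83 higher on the log2 scale (adjusted p = 1.69e-11 from edgeR). The switch of medium removed JAK Inhibitor I together with other agents, and their parts cannot be told apart in this design.

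**Figure D4:**
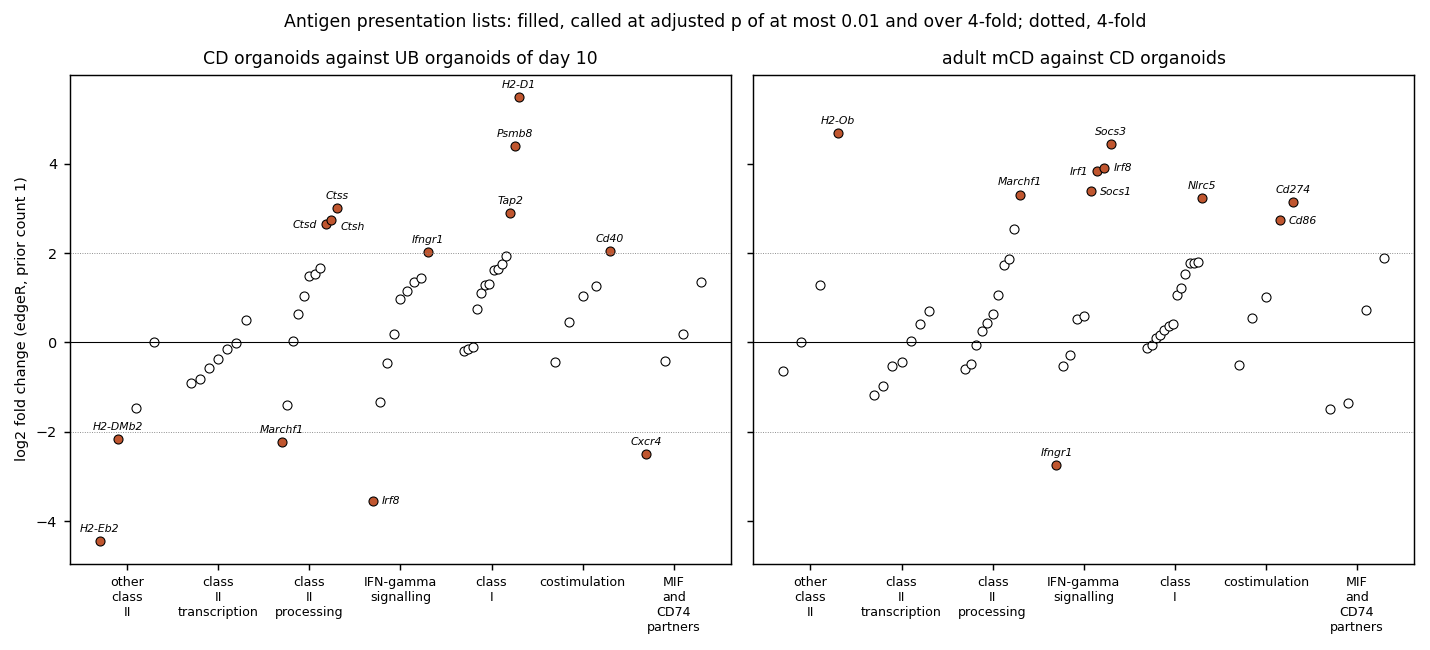
Log2 fold change of the reported genes of the antigen presentation lists of CD organoids over UB organoids of day 10 (left) and of adult mCD over CD organoids (right), with genes ordered by value within a list, filled points for called genes and dotted lines at 4-fold. H2-D1, Psmb8, Tap2 and the cathepsin genes Ctsd, Ctsh and Ctss lie above the line in the left panel, and the class II promoter factors lie within it in both panels.

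The small lists for costimulation and for partners of CD74 had 5 and 4 genes tested. From day 10 to CD organoids 1 costimulation gene was called higher and 1 CD74 partner lower, against 4.96% and 5.71% of all genes. From CD organoids to adult mCD 2 costimulation genes were called higher, against 9.84% of all genes, and no CD74 partner was called. With lists of 5 and 4 genes, nothing is read from these shares. Cd40, a costimulatory receptor, had 12 and 10 counts at day 10 and 21 and 29 in CD organoids (2.05 on the log2 scale, adjusted p = 6.44e-04 from edgeR). Cd274, which encodes the inhibitory ligand PD-L1, and Cd86 were called higher in adult mCD than in CD organoids, with 158 and 79 and with 11 and 10 counts. Mif, the cytokine that binds CD74 at the cell surface, had 9904 and 7454 counts at day 10 and 3393 and 3151 in CD organoids, and its log2 fold change was -0.43 (adjusted p = 0.0173 from edgeR). Of the receptors that signal with CD74, Cxcr4 was called lower in CD organoids, at -2.50 (adjusted p = 2.91e-08 from edgeR), and Cd44 was at 1.35 (adjusted p = 9.73e-04 from edgeR), under 4-fold.

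Within the UB organoids, few of the list genes passed the threshold for a call. From day 5 to day 10 none of the 22, 24 and 36 tested genes of the class II pathway, class I and leukocyte lists was called by edgeR, DESeq2 or limma, against 3.41% of all genes, 2.34% higher and 1.07% lower. At an unadjusted p under 0.05 from edgeR, 12, 15 and 11 of them passed. From day 10 to day 20, H2-D1 was called higher, with 123 and 66 counts at day 10 and 260 and 331 at day 20 (2.36 on the log2 scale, adjusted p = 4.63e-06 from edgeR), and Pax5 and Coro1a lower, against 1.66% and 1.73% of all genes. Without replicate 2 of day 10 H2-D1 was no longer called and 1 gene of the class II pathway list was, and without replicate 2 of day 20 neither Pax5 nor Coro1a was called.

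By the same threshold, the members called were Ptprc from day 5 to day 10 and Cd74 from day 10 to day 20, both higher, beside 3.41% and 3.39% of all genes in either direction. From day 10 to CD organoids they were Cd74, Ptprc and H2-Ab1, all higher, and from day 20 to CD organoids Cd74 alone, beside 10.7% and 9.46% of all genes in either direction. Between CD organoids and adult mCD they were H2-Aa, H2-Ab1, H2-Eb1, H2-DMb1 and Csf1r, all higher, 5 of 10 beside 14.3% of all genes in either direction. Since the members were chosen for such levels, nothing is read from these counts.

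The genes nearest in pattern to the members were sought among the 10539 genes with a mean of at least 10 CPM. The measure was the Euclidean distance between profiles of log2(CPM + 1) over the 10 libraries, each centred on its mean. Among the 5 nearest to the mean profile of Cd74 and the 3 chains were Elovl7, Plpp1, Ctsf and Mpc1, at distances of 0.450 to 0.683. Nearest to Cd74 alone, a search added after the data were seen, were Slc34a2, Pof1b, Pmaip1, Cpeb2 and Spink8, at 1.11 to 1.84. Slc34a2, a phosphate transporter of epithelia, was at 79.2 and 80.0 CPM in CD organoids, 22.2 and 20.9 CPM in adult mCD and at most 0.584 CPM at day 5 and day 10. Nearest to Ptprc alone were 2310001H17Rik, Atp10b, St6galnac2, Dkk3 and Gm20559, at 0.807 to 1.31.

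Between the members themselves, H2-Aa and H2-Eb1 were nearest to each other, at 0.599, followed by H2-Eb1 and H2-DMb1, at 1.11. Cd74 was nearest to Ptprc, at 2.88, and lay 5.42 or more from each of the 3 chains. Csf1r lay 2.24 to 2.63 from the chains and 6.90 from Ptprc.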

How the data were processed

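RNA-seq of mouse UB organoids, CD organoids and adult mCD cells was analysed, with 2 libraries in each of 5 groups taken from the sample titles. The paper's methods describe trimming, alignment with STAR to mm10 and quantification of GENCODE M24 genes by the E/M model of Partek Flow. The authors deposited whole-number counts for 39273 genes. The submitters' processing notes name STAR, cutadapt 2.5, Trimmomatic 0.36, FastQC 0.11.8 and edgeR 3.28.1. Partek is not among the tools they name, so it is uncertain which tool made the deposited counts. For RNA and libraries the labels name QIAgen RNeasy and Illumina TruSeq and the methods Direct-zol and the KAPA Stranded mRNA-Seq kit. The authors also deposited RPKM values, whose gene length sums the exons of all transcripts and exceeds the merged exons of the members 1.54 to 3.19 times. RPKM values were therefore used only in an alternative, and levels between genes were compared as CPM per kilobase of merged exon of GENCODE M21, which holds 99.7% of the gene identifiers. The 10 columns of scaled counts were not used.

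Genes were tested with edgeR 4.0.16 in R 4.3.3 by quasi-likelihood, with TMM factors of 0.792 to 1.12, a prior count of 1, all 10 libraries in one fit of group means and Benjamini-Hochberg adjustment over the 24410 genes with at least 10 counts in all. The thresholds for a call, an adjusted p no higher than 0.01 and over 4-fold, follow the study's methods. Standard errors were derived from the test statistic and are approximate. A fold against a group at 0 is a bound against 3 counts over the group, and ratios on 1 to 3 counts carry exact 95% intervals for counting error only. With 2 libraries against 2 an exact permutation test cannot go below p = 0.333, so the p-values rest on the shared estimate of the spread and measure only the spread between these libraries, which may be technical. Same-numbered libraries did not deviate together, with correlations of -0.0753 to 0.0961. The fit was tested on simulated counts.

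The members and lists were chosen with earlier results of these data known. Named with values were the members, the list genes that were called, those with the largest or smallest change, defining markers at 0, and the 5 genes nearest in pattern. Some further list genes (H2-K1, B2m, Nlrc5, Mif, Cd44 and H2-Ea) were named after their values were seen. Of the list genes called and of the genes nearest in pattern, 1 each is counted but not reported here by name or drawn. Of the lists, Ifng, Nkg7, Pdcd1lg2 and H2-Ea-ps were not matched in the table. The alternatives used library totals, other filters, a prior count of 5, the 4 libraries compared only, a replicate block, DESeq2 1.42.0, limma 3.58.1 on log2(RPKM + 1), a looser threshold, and each library left out. Tables were made with Python 3.11.15, pandas 2.3.3, numpy 2.4.6 and scipy 1.17.1, and figures with matplotlib 3.10.9.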

Additional observations from a re-analysis of the deposited data

How the results depend on the processing

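The values rest on 2 libraries a group, on counts of fewer than 20 for most chain genes in organoids, and on the deposited assignment of reads, which could not be repeated here. Over all alternatives, no log2 fold change of a member that was called changed its sign. The sizes were less stable. Of the alternative values of members, 367 lay within the pooled SD of the compared libraries, on log2(CPM + 1), of the reported value, and 226 did not. For H2-Ab1 from day 10 to CD organoids the log2 fold change ran from 2.24 to 5.91 over the alternatives other than limma. Library totals without a composition factor moved the median of all genes by -0.34 (log2) from CD organoids to adult mCD and by 0.14 from day 5 to day 10, and limma on log2(RPKM + 1) moved it by 0.13 from day 10 to CD organoids, and changes are to be read relative to these shifts. Of 195 alternative counts of list genes called, 159 stayed within 1.5 times of the reported count.

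The threshold moved the counts most. At an adjusted p of at most 0.05 from edgeR and any fold change, the class II pathway, class I and leukocyte lists had 11, 13 and 7 genes from day 5 to day 10 and 9, 6 and 4 from day 10 to day 20. The first 2 lists had 16 and 20 from day 10 to CD organoids and 14 and 20 from day 20 to CD organoids, and all 3 had 16, 20 and 27 from CD organoids to adult mCD. With limma on log2(RPKM + 1), a scale that understates the change of low genes, they had 2, 1 and 1 from day 10 to CD organoids, 2, 1 and 1 from day 20 to CD organoids and 0, 3 and 2 from CD organoids to adult mCD, and the class I and leukocyte lists had 0 and 0 from day 10 to day 20. From day 10 to day 20 the class II pathway list had 1 with no filter on low counts, and the leukocyte list had 1 with a prior count of 5, 1 with DESeq2, and 0 with the 4 libraries compared only.

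With the replicate number as a block the leukocyte list had 1 in place of 2 genes called from day 10 to day 20, and no other count of a list left the range of 1.5 times. The replicate numbers share only a number, since same-numbered libraries did not deviate together.

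With 1 library left out, where the lone library is assumed to vary like the other groups, the counts from day 10 to day 20 ranged from 0 to 1 for the class II pathway list, from 0 to 1 for the class I list and from 0 to 1 for the leukocyte list. The leukocyte list ranged from 8 to 12 from CD organoids to adult mCD, and was lowest without replicate 1 of CD organoids.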
